A study of Rattus norvegicus with 15 samples.

Results

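Potassium channel genes were followed across 15 microarrays of the rat subfornical organ, a small midline brain structure that lacks a tight blood-brain barrier and senses circulating signals of fluid and energy balance. Members were all genes with a symbol that begins with Kcn, followed by a family letter code and a number, taken from probe sets annotated with a single gene symbol. The rule found 75 genes on 126 probe sets, of 14218 genes and 31099 probe sets in all. Each gene is described by its brightest probe set over the 15 arrays. Of the 75 genes, 50 (66 probe sets) lay above the filter on dim probe sets, the 30th percentile of probe set means (5.11 on the log2 scale), and results below are about these unless stated. The classes, with the number above the filter and the number in all, were Kv1 subunits (5 of 6), Kv2 (0 of 1), Kv3 (3 of 3), Kv4 (3 of 3), their Kcnip partners (4 of 4), Kvbeta subunits (3 of 3), modifier Kv subunits (4 of 7), KCNQ (3 of 3), the EAG family (4 of 8), Kcne subunits (3 of 4), calcium- and sodium-activated channels (3 of 7), inward rectifiers (8 of 15) and two-pore channels (7 of 11).

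Potassium channels let potassium leave the cell, which holds the resting membrane potential and ends action potentials. Voltage-gated Kv subunits assemble into channels and bind cytoplasmic or membrane-spanning helper subunits, inward rectifiers and two-pore channels set the resting potential, and calcium- and sodium-activated channels couple firing to ion entry. In epithelia such as the choroid plexus, some of the same genes serve ion and fluid transport.

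The groups were water deprivation, food deprivation for 48 h, and untreated control, each with 5 arrays. Animals were Sprague Dawley males between 10 and 12 weeks old, and an array held the pooled subfornical organ RNA of 5 of them, so a group held 25 animals and the spread is that between pools. The length of the water deprivation is not given in the sources used here, and the series text, read literally, describes denial of food in every condition. Values are Affymetrix signals (linear intensity), tested with limma on log2(signal + 16), so that differences of dim genes are understated. An adjusted p is Benjamini-Hochberg over all 21729 probe sets tested. In dissected tissue, fewer cells of a type and less RNA per cell cannot be told apart.

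Before any group is compared, 2 features of the arrays need stating. The mean log2 ratio of the 5′ to the 3′ control probe sets of Actb and Gapdh, a measure of RNA and labelling quality, parted the arrays into a high set (-0.86 to -0.71; water-deprived replicates 1 and 2 and all food-deprived arrays) and a low set (-2.81 to -1.24; water-deprived replicates 3, 4 and 5 and all controls). Water-deprived replicate 3 stood apart with the lowest ratio, -2.81. Markers of the choroid plexus and ependyma (7 of 8 measured, none below the filter) summed to between 2514 and 12740 signal units on water-deprived arrays, between 5600 and 10910 on food-deprived arrays and between 3505 and 10720 on control arrays. Markers of the subfornical organ (5 of 6 measured, all above the filter) summed to 512 to 1236, 472 to 594 and 354 to 875 units in the same order of groups. A list of 3 peptide genes of neighbouring hypothalamic neurons summed to 206 to 3485 units on water-deprived arrays, 123 to 176 on food-deprived arrays and 916 to 3503 on control arrays.

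Promoters are shown for Kcnt1, Kcnc4 and Kcnj13. On their brightest probe sets, signals of Kcnt1 and Kcnc4 on food-deprived and control arrays did not overlap and lay in opposite directions. Kcnj13 is 1 of only 2 members with a TATA box. The sequences are RefSeq's (GRCr8), 250 bases before to 50 bases after the annotated start, 5′ to 3′ on the gene's strand. Capitals mark the GC box (GGGCGG, or its reverse complement) in the promoters of Kcnt1 and Kcnc4 and the TATA box (TATAAA) in that of Kcnj13. Kcnt1, which encodes a sodium-activated channel, lies on the plus strand at chr3:29081089-29081388. Kcnc4, a Kv3 subunit, lies on the minus strand at chr2:197788384-197788683. Kcnj13, an inward rectifier of transporting epithelia, lies on the minus strand at chr9:95518937-95519236.
Kcnt1: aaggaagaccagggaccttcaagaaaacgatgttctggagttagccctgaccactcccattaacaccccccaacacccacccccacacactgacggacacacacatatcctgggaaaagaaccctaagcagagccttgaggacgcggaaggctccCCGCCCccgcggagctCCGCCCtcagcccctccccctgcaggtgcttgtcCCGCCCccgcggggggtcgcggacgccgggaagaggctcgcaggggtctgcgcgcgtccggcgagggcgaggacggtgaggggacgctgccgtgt
Kcnc4: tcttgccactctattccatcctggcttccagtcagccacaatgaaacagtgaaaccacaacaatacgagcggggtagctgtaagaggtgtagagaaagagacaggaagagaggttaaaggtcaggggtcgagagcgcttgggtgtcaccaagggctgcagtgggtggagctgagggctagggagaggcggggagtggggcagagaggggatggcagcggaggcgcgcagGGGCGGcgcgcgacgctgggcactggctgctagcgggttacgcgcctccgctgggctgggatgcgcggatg
Kcnj13: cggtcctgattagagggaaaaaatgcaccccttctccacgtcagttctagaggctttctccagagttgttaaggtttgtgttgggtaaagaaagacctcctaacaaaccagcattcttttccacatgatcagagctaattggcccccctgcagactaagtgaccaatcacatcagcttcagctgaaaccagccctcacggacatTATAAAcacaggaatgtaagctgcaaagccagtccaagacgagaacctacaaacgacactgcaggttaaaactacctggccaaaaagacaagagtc
The GC boxes of Kcnt1 begin at positions -95, -79 and -45 from the start, that of Kcnc4 at -21, and the TATA box of Kcnj13 at -46. Over the 52 of 75 members matched to a promoter, the median GC content was 62.0%, against 55.3% over all 19005 promoters of protein-coding genes. Searched on both strands, a GC box occurred in 57.7% of member promoters and 43.1% of all promoters, and a TATA box in 3.85% (Kcnj1 and Kcnj13) and 13.1%. The AP-1 motif (TGANTCA) was present in 5.77% of member promoters (Kcne1, Kcnj1 and Kcnj16) and 6.65% of all. The letters TTCAGCACC, a part of the RE1 motif, occurred in 1 member promoter, that of Kcnh6 (1.92% against 0.41% of all), and the CRE letters TGACGTCA in 0 of 52 against 2.22% of all. These matches describe letters in the window, not bound sites.

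No potassium channel gene passed the test in any of the 3 comparisons of groups. Between water deprivation and control, 0 of 50 genes passed limma's test at an adjusted p below 0.05, against 0.0046% of all probe sets (1 probe set), and 1 gene had an unadjusted p below 0.05, against 6.5%. Signals did not overlap between these groups for 0 genes, against 0.741% of probe sets. Of the 50 genes, 28 (56%) were above 0 on the log2 scale with a median difference of 0.03, beside 49.9% and -5e-04 over all 11510 genes above the filter. The 95% interval of the difference lay within 2-fold in both directions for 44 of the 50 genes and within 1.5-fold for 26, and reached past those sizes for the others.

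Between food deprivation and control, 0 of 50 genes passed, against 8.53% of all probe sets (1854), and 5 genes had an unadjusted p below 0.05, against 26.3%. Signals did not overlap for 4 genes, Kcnt1, Kcnj3 and Kcnk9 (higher in food deprivation) and Kcnc4 (lower), against 15.4% of probe sets. The genes above 0 numbered 34 (68%) with a median of 0.10, beside 54.5% and 0.03 over all genes, but they numbered 28 after quantile normalization and 25 after median centring, which moved the median of all probe sets to -0.06, against 0.05 as deposited. Intervals lay within 2-fold for 44 genes and within 1.5-fold for 20. All food-deprived arrays were in the high 5′/3′ set and all control arrays in the low set, and with the set as a term 0 genes passed, as did 0 of all probe sets (0%). That term is estimated only from water-deprived replicates 1 and 2 against 3, 4 and 5. Differences given with it are less precise. Their intervals lay within 2-fold for 24 genes, and the median half-width was 0.72, against 0.45 without the term. The 3 peptide genes of neighbouring neurons also parted food-deprived arrays (123 to 176 summed units) from control arrays (916 to 3503). The part of dissection in the members' values was not tested. Leaving out water-deprived replicate 3, which enters here only through the shared spread, Kcna5 (adjusted p = 0.0208) and Kcnt1 (adjusted p = 0.0491) passed as higher and Kcnc4 as lower (adjusted p = 0.0297), against 13.1% of all probe sets.

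Between water and food deprivation, 0 of 50 genes passed, against 0.152% of all probe sets, and 4 had an unadjusted p below 0.05, against 15.8%. Kcna5 was the 1 gene without overlap, against 3.52% of probe sets. There were 20 genes above 0 (40%) with a median of -0.07, beside 45.5% and -0.02 over all genes, and they numbered 25 after quantile normalization and 27 after median centring, which moved the median of all probe sets to 0.05, against -0.04 as deposited. Intervals lay within 2-fold for 41 genes. The 3 comparisons share arrays, so their values for a gene are not independent. With the 5′/3′ set as a term, 0 member genes passed in either comparison with water deprivation, against 0.0276% of all probe sets for water deprivation against control and 0% for water against food deprivation.

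**Figure D1:**
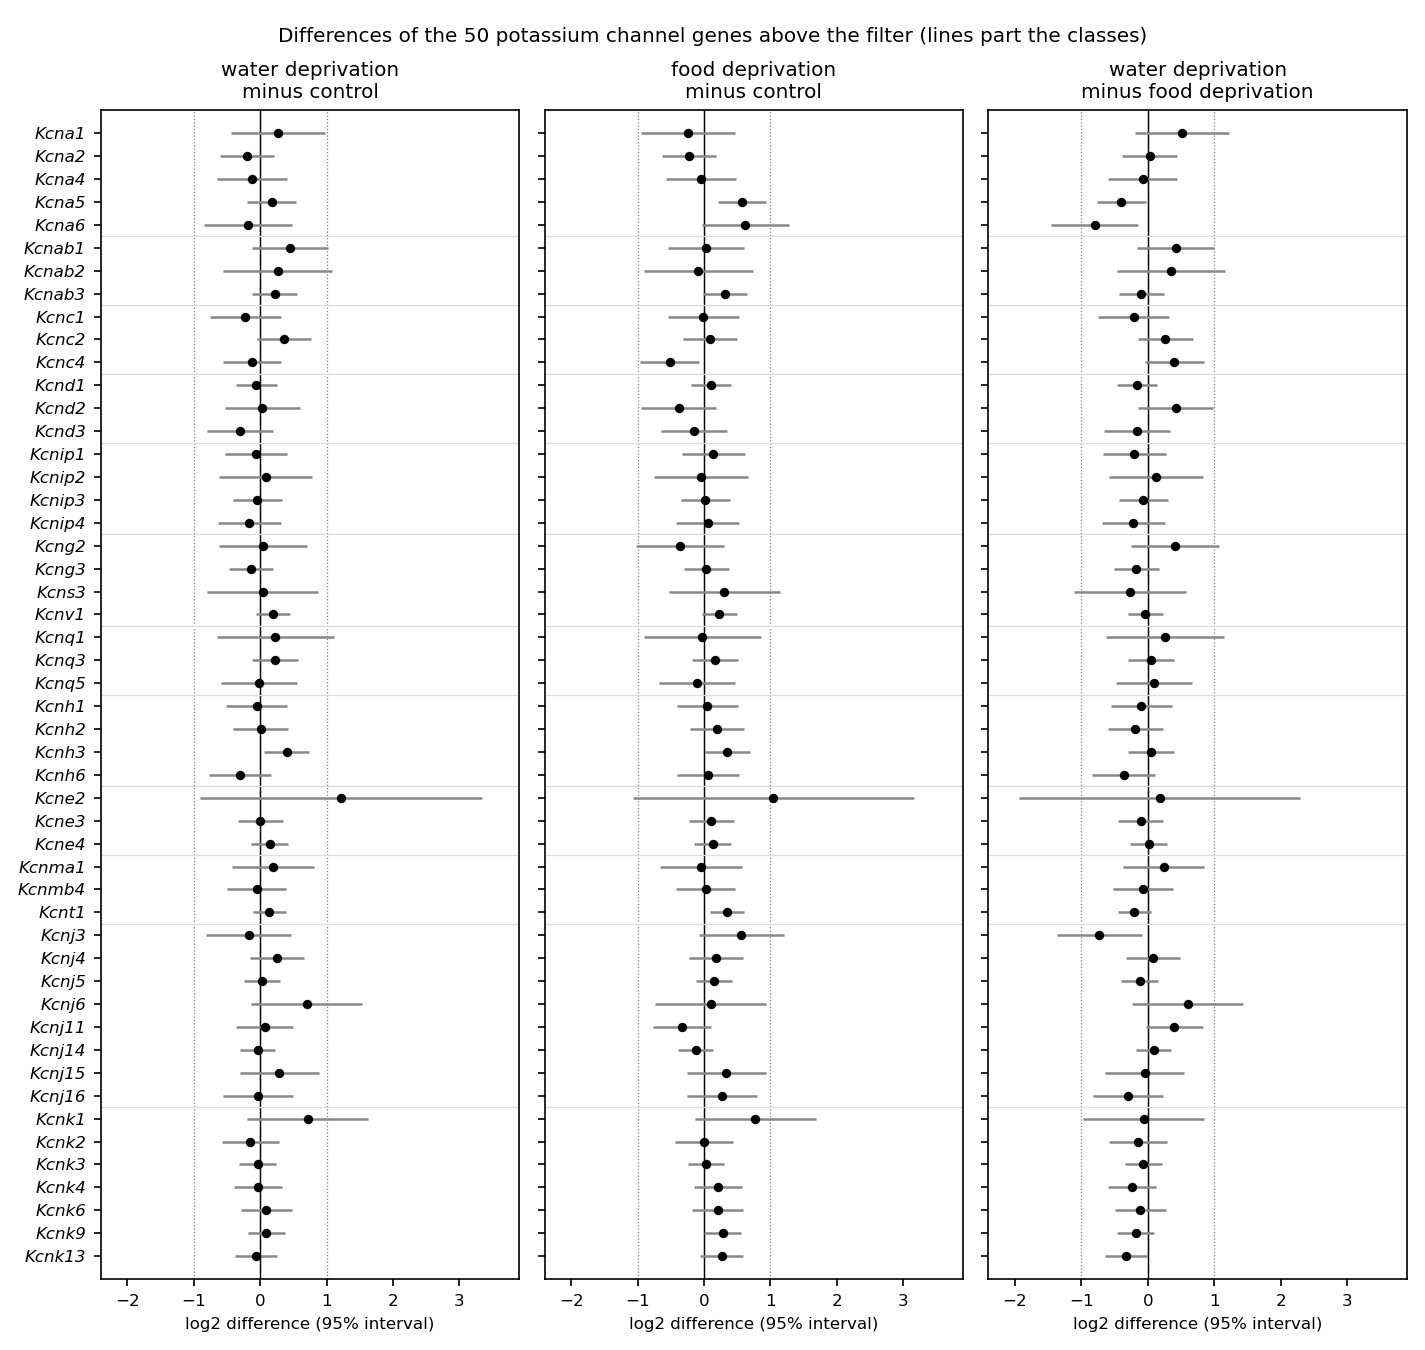
Log2 difference (x axis) of each of the 50 potassium channel genes above the filter (y axis, grouped by class), for water deprivation minus control, food deprivation minus control and water deprivation minus food deprivation; points are limma estimates from 5 arrays a group and lines their 95% intervals. None of the 50 genes passed in any panel, and Kcne2 had the widest intervals.

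Among the Kv1 subunits, which form delayed rectifier and fast-inactivating channels of axons and smooth muscle, Kcna5 and Kcna6 had the largest differences between food-deprived and control arrays. Kcna5, a delayed rectifier also known from vascular muscle, had signals, in replicate order, of 46.8, 42.3, 20.4, 40.7 and 37.1 on water-deprived arrays, 59.6, 52.04, 51.5, 56.7 and 47.2 on food-deprived arrays and 34.02, 30.4, 29.4, 49.2 and 16.2 on control arrays. Every food-deprived array lay above every water-deprived array and above 4 of the 5 control arrays. The difference between food deprivation and control was 0.57 (SE 0.17, limma adjusted p = 0.0506) and was 0.23 with the 5′/3′ set as a term. Between water and food deprivation it was -0.40 (SE 0.17, adjusted p = 0.275).

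Kcna6, next to Kcna1 and Kcna5 on chromosome 4, read 187, 122, 64.3, 184 and 98.3 on water-deprived arrays, 165, 191, 289, 307 and 209.7 on food-deprived arrays and 121, 308, 153, 129 and 73.7 on control arrays. Control replicate 2 lay beside the highest food-deprived value, and the other control arrays lay below every food-deprived array. Differences were 0.62 for food deprivation minus control (SE 0.31, adjusted p = 0.217) and -0.80 for water minus food deprivation (SE 0.31, adjusted p = 0.224). With the 5′/3′ set as a term they were 0.17 (SE 0.54) and -0.53 (SE 0.41). Markers of oligodendrocytes (7 of 8 measured, none below the filter) summed to 5060 to 13810 on water-deprived arrays, 11560 to 16470 on food-deprived arrays and 5641 to 16510 on control arrays.

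Kcna1 and Kcna2, the subunits of channels beside the nodes of myelinated axons, did not pass in any comparison. Kcna1 read 145, 133, 307, 167 and 122 on water-deprived, 87.99, 111, 113, 125 and 121 on food-deprived and 164, 248, 191, 38.04 and 129 on control arrays, with its highest value on water-deprived replicate 3 and its lowest on control replicate 4. The difference between water and food deprivation was 0.51 (SE 0.33), and 0.31 without water-deprived replicate 3. Kcna2 averaged 224 ± 51.6 units in water deprivation, 218 ± 42.3 in food deprivation and 262 ± 72.6 in control (SD, n = 5 each). On this brightest probe set the groups overlapped throughout, and food deprivation minus control was -0.23. A second Kcna2 probe set gave 0.42 (SE 0.14, limma adjusted p = 0.0757), and 0.12 with the 5′/3′ set as a term. There every food-deprived array (28.8 to 49.0) lay above every control array (20.5 to 26.4), against 15.4% of all probe sets without overlap. The sign therefore depends on the probe set. For Kcna4, the fast-inactivating Kv1 subunit, 14 arrays lay between 25.4 and 55.2 and water-deprived replicate 3 at 97.8.

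The Kvbeta genes encode cytoplasmic subunits that bind Kv1 channels. Kcnab2 read 133, 89.1, 723, 146 and 131 on water-deprived arrays, 116, 129, 143, 174 and 127 on food-deprived arrays and 137, 226, 131, 166 and 95.9 on control arrays. The value of 723 on water-deprived replicate 3 stood well above the next highest, 226 on control replicate 2, and the other arrays overlapped across groups. Kcnab1 read 167, 125, 219, 75.2 and 86.6 on water-deprived, 60.4, 93.9, 80.7, 132 and 93.2 on food-deprived and 100, 163, 72.6, 60.6 and 68.5 on control arrays. Its differences were 0.45 for water deprivation minus control and 0.42 for water minus food deprivation (SE 0.27 each), and 0.27 and 0.24 without water-deprived replicate 3. A second Kcnab1 probe set gave 0.21 and -0.04 for the same differences, so the sign of the second depends on the probe set.

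Kv3 subunits carry the fast repolarising current of rapidly firing neurons. Kcnc4 read 65.3, 55.3, 174, 105 and 80.1 on water-deprived arrays, 56.9, 72.9, 70.2, 70.6 and 50.7 on food-deprived arrays and 108, 86.2, 101, 119.7 and 81.4 on control arrays. All food-deprived arrays lay below all control arrays, and the first and second water-deprived arrays, which belong to the high 5′/3′ set, lay among the food-deprived ones. Food deprivation minus control was -0.52 (SE 0.21, limma adjusted p = 0.126), and 0.26 (SE 0.28) with the set as a term. A second probe set of Kcnc4 gave 0.35 (SE 0.14) for the same difference, and -0.19 (SE 0.19) with the set as a term. On it every food-deprived array (39.2 to 48.2) lay above every control array (22.7 to 37.7), against 15.4% of all probe sets without overlap. The 2 probe sets thus parted the groups in opposite directions, so the sign depends on the probe set. Kcnc2 averaged 146 ± 32.9 units in water deprivation, 118 ± 17.8 in food deprivation and 112 ± 33.5 in control, and water deprivation minus control was 0.36 (SE 0.19, adjusted p = 0.752). Kcnc1 averaged 125 ± 31.7, 146 ± 30.6 and 159 ± 83.1 units in the same order of groups.

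Kv4 subunits form the subthreshold A-type current of dendrites and cell bodies, and the Kcnip genes encode the calcium-binding proteins that accompany them. Kcnd2 read 164, 133, 483, 202 and 201 on water-deprived arrays, 122, 138, 163, 179 and 184 on food-deprived arrays and 249, 248, 204, 245 and 122 on control arrays. The food-deprived arrays lay below 4 of the 5 control arrays, and control replicate 5 lay at their lower edge. Food deprivation minus control was -0.38 (SE 0.27, adjusted p = 0.389), and 0.43 (SE 0.41) with the 5′/3′ set as a term.

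Kcnd3 held the 1 potassium channel probe set of 66 that passed in a comparison of groups, and it was not the gene's brightest. On that second probe set, food-deprived arrays read 50.97, 59.8, 44.2, 67.3 and 44.4, against 110.0, 107.5, 102.2, 95.2 and 64.2 on control arrays, and water-deprived arrays read 46.2, 40.8, 112.5, 69.2 and 65.8. Food-deprived arrays lay below 4 of the 5 controls, and the fifth control lay among them. The signal fell by 0.68 on the log2 scale (SE 0.20, limma adjusted p = 0.0423) in food deprivation against control, a share of 1 in 66 beside the 8.53% of all probe sets. The difference was 0.01 with the 5′/3′ set as a term, and -0.14 (SE 0.23) on the gene's brightest probe set. That probe set averaged 126 ± 41.2 units in water deprivation, 139 ± 27.9 in food deprivation and 160 ± 50.04 in control.

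Of the 4 Kcnip genes, Kcnip2 varied most between arrays. It read 97.2, 62.9, 325, 148 and 103 on water-deprived arrays, 104, 101, 111, 149 and 116 on food-deprived arrays and 119, 212, 126, 132 and 53.4 on control arrays. Water-deprived replicate 3 was highest and control replicate 5 lowest, with the food-deprived arrays in between. Kcnip1, Kcnip3 and Kcnip4 differed between groups by -0.22 to 0.14 on the log2 scale.

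The modifier subunits of the Kcng, Kcns and Kcnv genes form no channel alone and change the properties of Kv2 channels. Kcng2 read 51.1, 58.3, 258, 101 and 66.1 on water-deprived arrays, 61.8, 81.5, 59.95, 65.9 and 52.1 on food-deprived arrays and 99.8, 58.7, 90.3, 141 and 60.5 on control arrays, again with water-deprived replicate 3 highest. Food deprivation minus control was -0.36 (SE 0.31, adjusted p = 0.506), with a sign that turned to 0.61 (SE 0.47) with the set as a term. Kcng3 averaged 21.2 ± 3.06, 26.2 ± 5.37 and 25.9 ± 10.5 units in water deprivation, food deprivation and control.

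**Figure D2:**
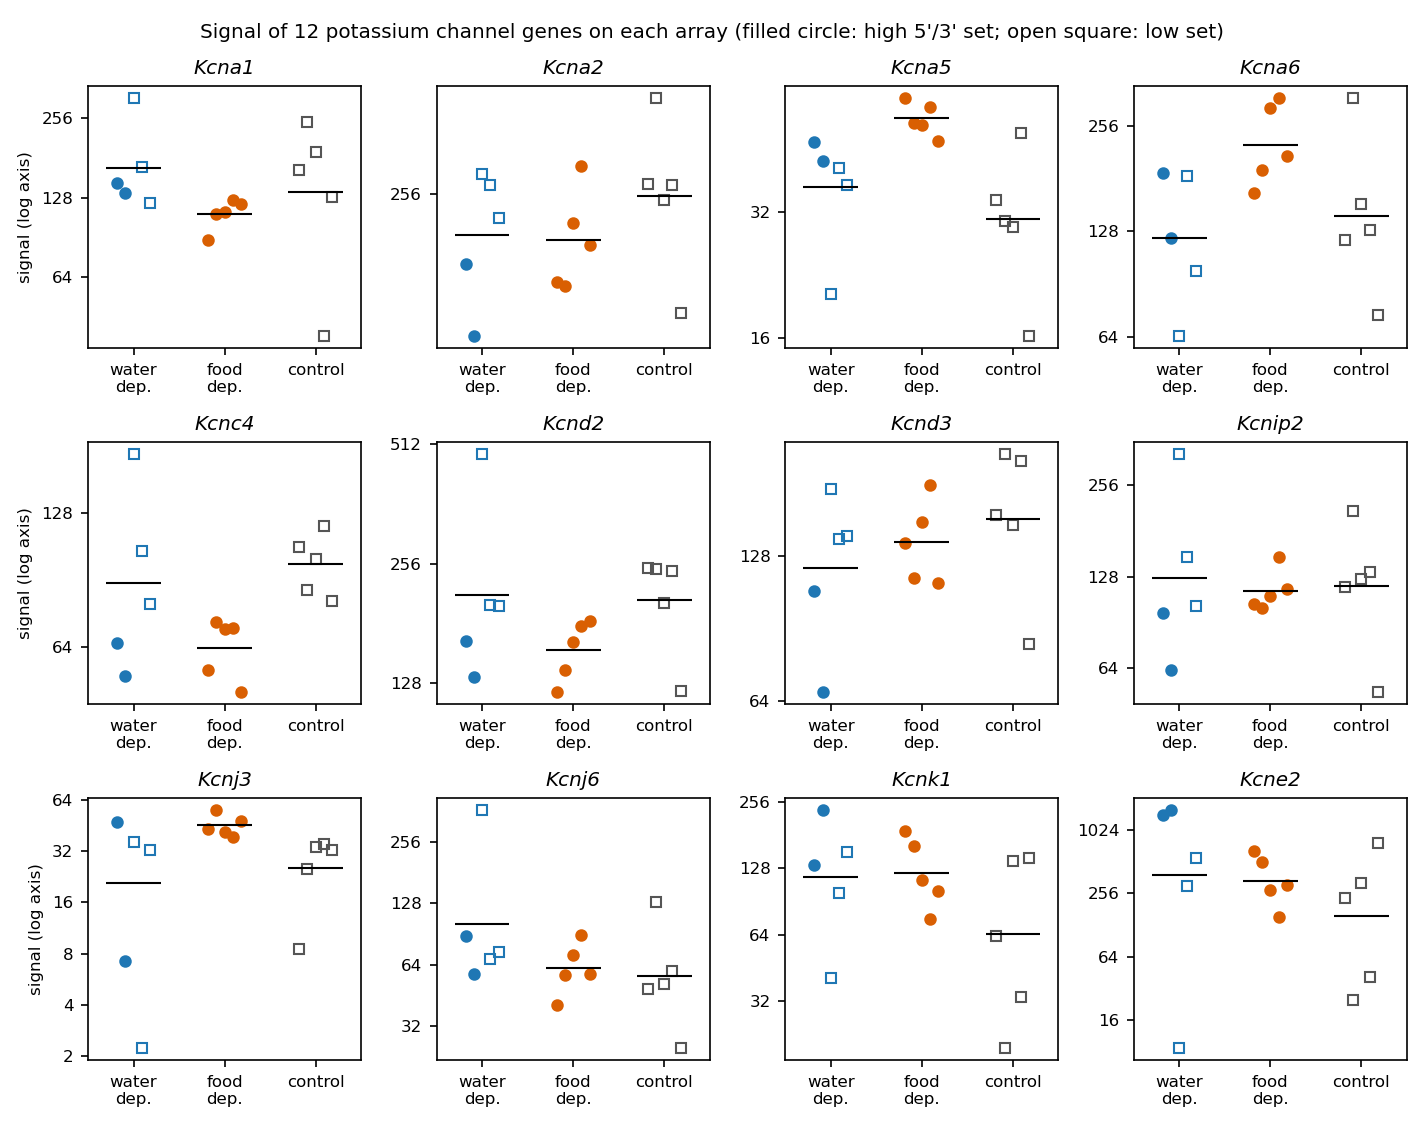
Signal (y axis, log scale) of 12 potassium channel genes on each of the 15 arrays, by group; filled circles are arrays of the high 5′/3′ set, open squares arrays of the low set, and the horizontal line is the group mean of log2(signal + 16) turned back to signal. Groups overlap in most panels, while for Kcnc4 and Kcnj3 the food-deprived arrays do not overlap the control arrays.

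In the EAG family, whose members include slow and inwardly rectifying voltage-gated channels, Kcnh3 had the smallest p of all members between water deprivation and control. It read 69.8, 81.2, 88.96, 54.1 and 54.9 on water-deprived arrays, 85.2, 38.4, 69.05, 70.05 and 76.2 on food-deprived arrays and 59.3, 44.5, 45.5, 44.7 and 48.3 on control arrays. The controls were close together except replicate 1, and food-deprived replicate 2 was the lowest of all 15 arrays. Water deprivation minus control was 0.40 (SE 0.16, adjusted p = 0.737) and food deprivation minus control 0.35 (adjusted p = 0.176), and 0.17 with the 5′/3′ set as a term. Without food-deprived replicate 2 the second difference was 0.50 and passed (adjusted p = 0.0498), as did 4.03% of all probe sets. Kcnh6, an ERG-type channel, averaged 39.1 ± 14.1, 54.6 ± 17.2 and 52.2 ± 21.2 units in water deprivation, food deprivation and control, and Kcnh2, which carries the ERG current of heart and neurons, 52.9 ± 14.4, 61.4 ± 6.01 and 54.7 ± 27.6 units. Kcnh1 averaged 62.5 ± 15.2, 67.96 ± 15.3 and 67.5 ± 24.98 units in that order, and none of the 3 genes passed.

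The KCNQ and Kcne genes include both neuronal and epithelial subunits. Kcnq3 and Kcnq5, which form the M current that limits repetitive firing, differed between groups by -0.10 to 0.22 on the log2 scale. Kcnq5 lay between 26.3 and 48.2 on 14 arrays and at 125 on water-deprived replicate 3. Kcnq1, an epithelial and cardiac subunit that works with Kcne proteins, read 42.4, 101, 14.9, 60.2 and 95.7 on water-deprived arrays, 74.6, 39.5, 30.7, 26.9 and 57.9 on food-deprived arrays and 42.5, 12.8, 57.2, 25.9 and 141 on control arrays, so that the extremes were both controls. Kcne2, a small membrane subunit known from the apical membrane of the choroid plexus in mice, had the widest range of any member. It read 1428, 1602, 8.6, 299 and 554 on water-deprived arrays, 654, 507, 277, 153 and 307 on food-deprived arrays and 229.7, 24.5, 321, 41.2 and 768 on control arrays. Water-deprived replicates 1 and 2 were highest and replicate 3 of the same group lowest. Water deprivation minus control was 1.22 with an interval of -0.90 to 3.34, and food deprivation minus control 1.04 with an interval of -1.08 to 3.16, too wide to compare the groups. With the 5′/3′ set as a term they were -0.07 and -2.18.

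Among the calcium- and sodium-activated channels, which follow ion entry during firing, Kcnt1 read 51.1, 57.9, 33.8, 39.7 and 39.2 on water-deprived arrays, 61.5, 53.6, 48.6, 57.6 and 44.5 on food-deprived arrays and 33.1, 43.5, 39.6, 38.03 and 37.4 on control arrays. Every food-deprived array was above every control array, as were the first and second water-deprived arrays, while the other water-deprived arrays lay among the controls. Food deprivation minus control was 0.35 (SE 0.12, limma adjusted p = 0.0759), and -0.05 with the 5′/3′ set as a term. A second Kcnt1 probe set gave -0.04 for the same difference. Kcnma1, the pore of the large-conductance BK channel, lay between 18.6 and 54.1 on 14 arrays and at 123 on water-deprived replicate 3. Its neuronal partner Kcnmb4 averaged 84.4 ± 36.9, 86.5 ± 19.96 and 84.9 ± 19.6 units in water deprivation, food deprivation and control.

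Inward rectifiers pass current more easily into than out of the cell. Kcnj3 and Kcnj6 encode subunits of the channels that G protein-coupled receptors open. Kcnj3 read 47.3, 7.25, 36.4, 2.24 and 32.5 on water-deprived arrays, 43.2, 55.9, 41.7, 38.8 and 48.4 on food-deprived arrays and 8.5, 24.99, 33.8, 35.2 and 32.6 on control arrays. All food-deprived arrays lay above all controls, and the water-deprived arrays reached from below the lowest control into the food-deprived range. Food deprivation minus control was 0.56 (SE 0.30, adjusted p = 0.252) and water minus food deprivation -0.73 (adjusted p = 0.251), where a second probe set gave -0.22.

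Kcnj6 read 88.6, 57.7, 368, 68.3 and 73.9 on water-deprived arrays, 40.6, 57, 71.6, 89.8 and 57.4 on food-deprived arrays and 48.6, 130.5, 51.5, 59.5 and 24.9 on control arrays. Water deprivation minus control was 0.70 (SE 0.40, adjusted p = 0.757) and 0.27 without replicate 3 of water deprivation. A second probe set of Kcnj6 gave 0.18. Kcnj11, the pore of the ATP-sensitive channel that ties excitability to metabolism, read 39.9, 32.8, 97.01, 32.2 and 53.6 on water-deprived arrays, 38.3, 31.6, 31.6, 34.9 and 25.2 on food-deprived arrays and 51.3, 34.99, 60.1, 47.4 and 33.05 on control arrays. Food deprivation minus control was -0.33 (SE 0.20, adjusted p = 0.321), 0.14 with the set as a term, and 0.41 on a second probe set. Kcnj16, which pairs with a glial inward rectifier, averaged 60.9 ± 14.5, 78.4 ± 12.5 and 68.8 ± 42.3 units in water deprivation, food deprivation and control. Kcnj4 averaged 54.5 ± 23.01, 48.5 ± 10.2 and 40.7 ± 6.29 units in the same order.

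Two-pore channels carry leak current. Kcnk1 read 132, 235, 40.7, 99.2 and 151 on water-deprived arrays, 189, 162, 113, 75.8 and 101 on food-deprived arrays and 63.1, 19.7, 139, 33.5 and 143 on control arrays. The controls split into replicates 3 and 5 near the deprived arrays and lower values in the others. Water deprivation minus control was 0.71 (SE 0.43, adjusted p = 0.76) and food deprivation minus control 0.78 (adjusted p = 0.267). With the 5′/3′ set as a term the differences were 0.35 (SE 0.48) and -0.13 (SE 0.72), so the second changed sign. Kcnk9, an acid-sensitive leak channel of neurons, read 17.9, 31.3, 14.1, 20.01 and 11.97 on water-deprived arrays, 20.6, 25.3, 19.8, 27.1 and 23.4 on food-deprived arrays and 18.7, 17.9, 15.2, 13.5 and 16.3 on control arrays. Food-deprived and control arrays did not overlap, and the difference of 0.28 (SE 0.13, adjusted p = 0.182) became -0.08 with the set as a term. Kcnk13, a leak channel known from microglia, averaged 33.5 ± 9.64, 45.7 ± 8.98 and 35.3 ± 7.54 units in water deprivation, food deprivation and control, and water minus food deprivation was -0.33 (SE 0.15, adjusted p = 0.307), and -0.09 with the set as a term. Kcnk2, a mechanically gated leak channel, averaged 102 ± 32.1, 112 ± 14.6 and 116 ± 40.9 units, and Kcnk3, Kcnk4 and Kcnk6 differed between groups by -0.24 to 0.21 on the log2 scale.

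The members did not take their extremes evenly over the arrays. Water-deprived replicate 3 held the highest of the 15 values for 18 of 50 genes (36%), against 13.8% of all genes above the filter, and the lowest for 6 (12%, against 17.2%). Control replicate 2 was highest for 10 members (20%, against 11.8% of all genes), and control replicate 5 lowest for 9 (18%, against 11.5%). The sums of choroid plexus and ependyma markers were the lowest of all arrays on water-deprived replicate 3 (2514) and control replicate 2 (3505), and 10720 on control replicate 5. Neuron marker sums (10 of 11 above the filter, Gad2 below it) were 8512, 11310 and 3143 on the same arrays. Food-deprived replicate 4, with a neuron marker sum of 9893, held the highest value for 0 members, against 3.83% of all genes. The part of tissue composition in the members' values was not tested beyond the relations that follow.

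**Figure D3:**
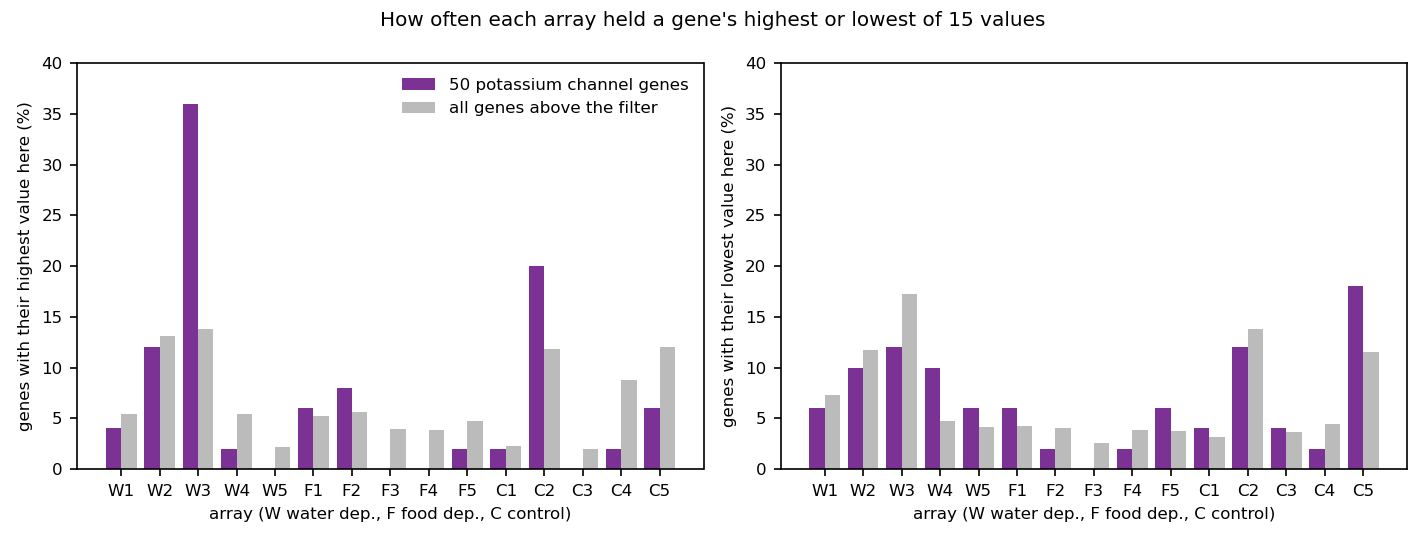
Share of genes (y axis, percent) for which each array (x axis) held the highest or the lowest of the 15 values, for the 50 potassium channel genes and for all genes above the filter. Water-deprived replicate 3 held the highest value for 36% of the potassium channel genes, against 13.8% of all genes.

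Across the 15 arrays, each member was set against the mean log2 signal of the neuron, oligodendrocyte and choroid plexus and ependyma markers, 150 relations in all, computed after the group values had been seen. Permutation p-values (100000 resamples, two-sided) were adjusted over the 150, and the smallest p they can give is 1e-05. Arrays were permuted freely across groups and 5′/3′ sets. Differences between groups or sets that a gene and a score share therefore enter these p-values. Pearson's r had an adjusted p below 0.05 for 17 genes with the choroid score (5 positive, 12 negative). It did for 12 with the neuron score (8 positive, 4 negative) and 6 with the oligodendrocyte score, all positive. The same relations were not computed over all genes, so no share stands beside these counts and they mark no trait of the members. The neuron score was itself related to the choroid score (r = -0.74) and to the oligodendrocyte score (r = 0.51). A member's relations to 2 related scores are therefore not separate results. All of the relations counted above kept their sign within both 5′/3′ sets and without the 2 arrays farthest from the score's median.

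Kcne2, Kcnk1 and Kcnq1 followed the choroid score upward. For Kcne2, r was 0.959 and rho 0.950 (permutation p = 1e-05, adjusted p = 0.000187 for r and 0.00075 for rho), with r = 0.919 without the 2 farthest arrays, 0.925 in the high set and 0.986 in the low set. Kcnk1 had r = 0.921 and rho = 0.879 (permutation p = 1e-05, adjusted 0.000187; rho p = 8e-05, adjusted 0.00214), with 0.909 without 2 arrays and 0.928 and 0.922 within the high and low sets. Kcnq1 had r = 0.874 and rho = 0.829 (permutation p = 1e-05, adjusted 0.000187; rho p = 0.00028, adjusted 0.0042), with 0.812 without 2 arrays and 0.766 and 0.956 within the sets. Kcnip2 ran the other way. It had r = -0.908 and rho = -0.875 with the choroid score (permutation p = 1e-05, adjusted 0.000187; rho p = 5e-05, adjusted 0.00214), with -0.779 without 2 arrays and -0.975 and -0.882 within the sets. Kcnab2, Kcna2, Kcnd2, Kcnd3, Kcnc1, Kcnmb4, Kcna4, Kcnip4, Kcnma1, Kcnq5 and Kcnj6 were the other negative genes, with r between -0.865 and -0.754.

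With the neuron score, Kcnip4 had r = 0.901 and rho = 0.868 (permutation p = 1e-05, adjusted 0.000187; rho p = 8e-05, adjusted 0.00214), with 0.908 without 2 arrays and 0.975 and 0.889 within the high and low sets. Kcnc1 had r = 0.897 and rho = 0.779 (permutation p = 4e-05, adjusted 0.0006; rho p = 0.00095, adjusted 0.00792), with 0.813 without 2 arrays and 0.866 and 0.915 within the sets. Kcnc1 encodes a Kv3 subunit and Kcnip4 a Kv4 partner, but the 12 genes were not all of these kinds. The other positive genes were Kcnip1 (r = 0.908), Kcnj16 (0.809), Kcnip2 (0.798), Kcna2 (0.792), Kcnd3 (0.731) and Kcns3 (0.657). The negative genes were Kcnq1 (-0.898), Kcnh1 (-0.698), Kcnk1 (-0.658) and Kcne2 (-0.642). Without the 2 farthest arrays r was 0.662 for Kcnip1. With the oligodendrocyte score, Kcna6 had r = 0.925 and rho = 0.950 (permutation p = 1e-05, adjusted 0.000187 for r and 0.00075 for rho), with 0.855 without 2 arrays and 0.911 and 0.915 within the sets. Positive with this score too were Kcnj16 (r = 0.767), Kcnh6 (0.755), Kcns3 (0.726), Kcnip1 (0.697) and Kcnh2 (0.674). Kcnj16, Kcns3 and Kcnip1 thus followed both the neuron and the oligodendrocyte score. Their r with the oligodendrocyte score was 0.739, 0.650 and 0.762 without its 2 farthest arrays. Several relations rested in large part on the 2 farthest arrays. Without them r was 0.369 for Kcnk6 and -0.371 for Kcnj6 with the choroid score, and -0.371 for Kcnh1, 0.383 for Kcnj16 and 0.328 for Kcns3 with the neuron score.

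**Figure D4:**
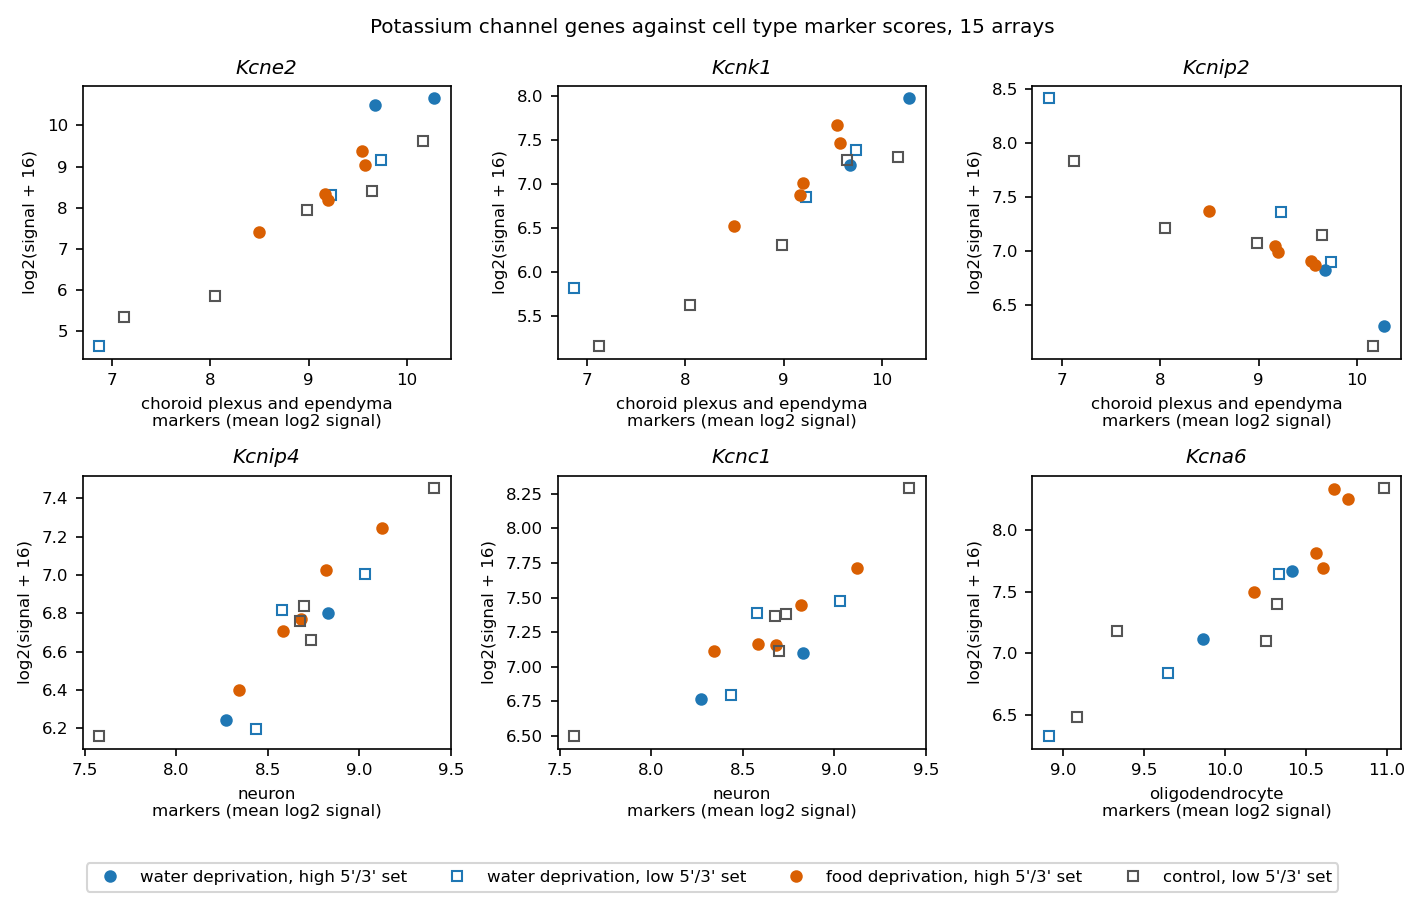
Log2(signal + 16) of 6 potassium channel genes (y axis) against the mean log2 signal of a cell type's markers (x axis) on the 15 arrays; colour gives the group, filled circles the high 5′/3′ set and open squares the low set. Kcne2 and Kcnk1 rise with the choroid plexus score (r = 0.959 and 0.921), Kcnip2 declines with it (r = -0.908), Kcnip4 and Kcnc1 rise with the neuron score and Kcna6 with the oligodendrocyte score.

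The difference between the 5′/3′ sets was estimated with group in the fit, so it rests on water-deprived replicates 1 and 2 against replicates 3, 4 and 5. Whatever else parts those arrays cannot be told apart from the set. Of 50 genes, 2 were higher and 1 lower in the high set at an adjusted p below 0.05, against 15.9% of all probe sets, and 14 had an unadjusted p below 0.05, against 31.5%. Kcnab3 was higher in the high set by 0.60 (SE 0.17, limma adjusted p = 0.028), with 31.6 and 29.6 on water-deprived replicates 1 and 2, against 20.8, 10.1 and 14.5 on replicates 3, 4 and 5. Kcnk6, a two-pore channel, was higher by 0.65 (SE 0.20, adjusted p = 0.0422), with 50.3 and 47.7 against 17.6, 27.3 and 32.5. Kcnc4 was lower by 0.78 on the log2 scale (-0.78, SE 0.23, adjusted p = 0.0353). Leaving out 1 water-deprived array at a time gave 0 to 6 genes: 0 without replicate 1, 2 or 4, 2 without replicate 3 and 6 without replicate 5. The share of all probe sets that passed was 5.82%, 3.86%, 9.44%, 12.1% and 17.5% without replicates 1 to 5 in order.

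**Figure D5:**
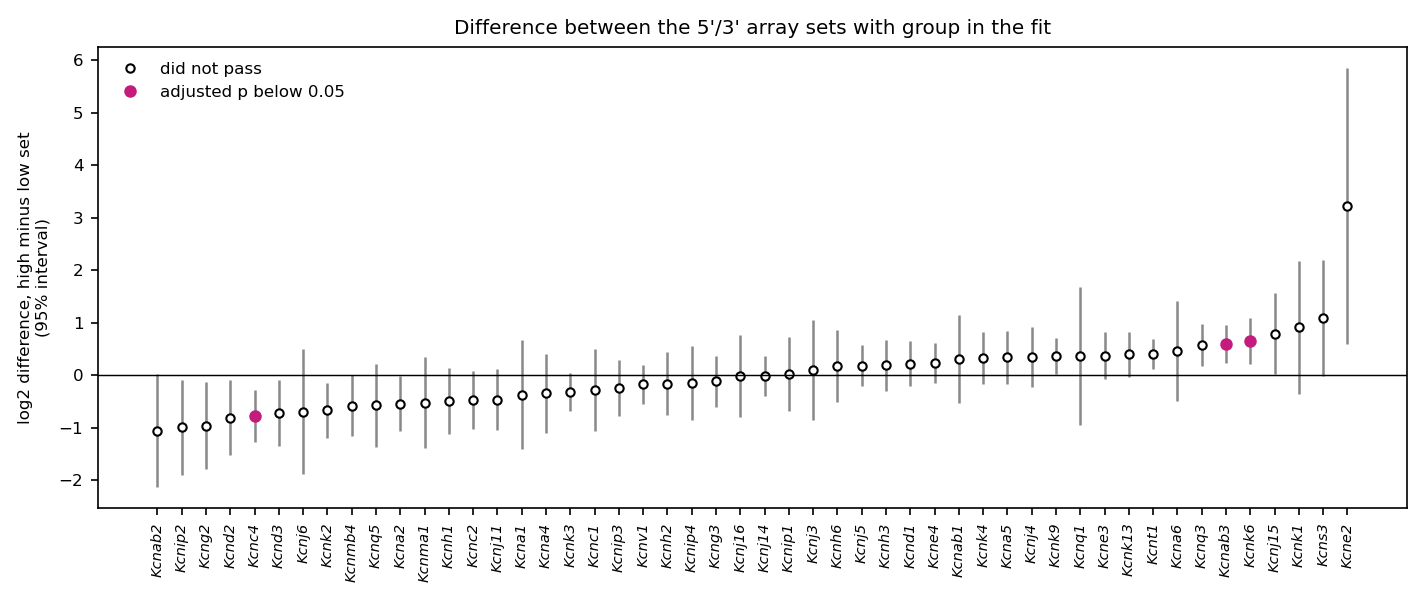
Log2 difference of the high minus the low 5′/3′ set (y axis) for the 50 potassium channel genes (x axis), with group in the fit; lines are 95% intervals and filled points passed at an adjusted p below 0.05. Kcnab3 and Kcnk6 lay above 0 and Kcnc4 below it.

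Probe sets of the same gene disagreed in this coefficient. Of the 66 probe sets, 5 were higher and 2 lower in the high set at an adjusted p below 0.05 by limma, against 15.9% of all probe sets. A second Kcnc4 probe set was higher by 0.54 (adjusted p = 0.0293), opposite to the brightest, and a second Kcnj6 probe set was higher by 0.71 (adjusted p = 0.0265), against -0.70 on its brightest. The second Kcne2 probe set was higher by 2.82 (adjusted p = 0.0276), beside 3.22 on the brightest. The Kcnd3 probe set that passed between food deprivation and control was lower in the high set by 0.70 on the log2 scale (-0.70, adjusted p = 0.0458).

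Some members sit next to each other in the genome (GRCr8), and their differences are given side by side. Kcna5, Kcna1 and Kcna6 follow each other on chromosome 4, with food deprivation minus control at 0.57, -0.24 and 0.62. Kcnj6 and Kcnj15 are neighbours on chromosome 11, with water deprivation minus control at 0.70 and 0.29. The other neighbouring pairs, Kcna3 with Kcna2, Kcnip1 with Kcnmb1, Kcnj16 with Kcnj2, Kcnj9 with Kcnj10 and Kcnj5 with Kcnj1, had at most 1 member above the filter.

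Partner proteins of these channels outside the naming rule were taken from a list of 17 genes, of which 14 had a probe set and 13 lay above the filter. None of the 13 passed in the 3 comparisons of groups, and unadjusted limma p-values below 0.05 numbered 1 for water deprivation against control (beside 6.5% of all probe sets), 2 for food deprivation against control (beside 26.3%) and 2 for water against food deprivation (beside 15.8%). Between food deprivation and control all 13 were above 0, with a median of 0.14, beside 54.5% and 0.03 over all genes. The count depended on the scaling, with 10 of 13 above 0 after quantile normalization and 8 after median centring (median 0.04), and it was 10 with the 5′/3′ set as a term. Dlg2, a scaffold that anchors channels at synapses and axons, had the largest difference (0.70, SE 0.23, adjusted p = 0.0677), and 0.05 with the 5′/3′ set as a term. Dpp10, a partner of Kv4 channels, was at 0.54 (SE 0.25), and at -0.02 with the set as a term. Abcc8, the regulatory subunit of the Kcnj11 channel, was at 0.22 (SE 0.16), and at 0.13 with the set as a term.

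Of the 75 genes, 25 lay below the filter and were not tested, among them Kcnb2, Kcnn3, Kcnj10 and Kcnh7. Without the filter, 3 of these passed between food deprivation and control, against 6.53% of all probe sets. Kcnn1, a small-conductance calcium-activated channel, read 9.09, 9.26, 4.47, 5.3 and 6.45 on water-deprived arrays, 19.4, 23.2, 14.6, 19.1 and 24.7 on food-deprived arrays and 3.23, 8.14, 6.23, 6.33 and 14.97 on control arrays, with a difference of 0.62 (SE 0.12, limma adjusted p = 0.0112). Kcnj13 read 11.1, 11.99, 2.2, 9.5 and 5.53 on water-deprived arrays, 25.1, 28.8, 13.2, 23.8 and 24.3 on food-deprived arrays and 15.8, 11.6, 9.91, 8.49 and 12.97 on control arrays, with a difference of 0.48 (SE 0.14, adjusted p = 0.0498). Kcnk5, an alkaline-sensitive leak channel, read 2.81, 7.53, 4.06, 2.17 and 4.13 on water-deprived, 6.68, 6.96, 2.37, 4.05 and 1.26 on food-deprived and 18.6, 11.01, 8.93, 9.98 and 15.7 on control arrays, and fell by 0.51 on the log2 scale (SE 0.11, adjusted p = 0.0181). Food-deprived and control arrays did not overlap for Kcnk5, and for Kcnn1 and Kcnj13 the lowest food-deprived value lay below the highest control value. Every water-deprived array of Kcnk5 (2.17 to 7.53) also lay below every control array (8.93 to 18.6). This held for replicates 3, 4 and 5, which share the low 5′/3′ set with the controls. Water-deprived and control arrays were apart for 0.741% of probe sets above the filter. The division into 5′/3′ sets runs with these groups here too.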

How the data were processed

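RNA was amplified, labelled with biotin and hybridised to Affymetrix rat arrays, per the labels' protocols. The deposited values are signal intensity on a linear scale, 1 value per probe set and array. The submitters' processing notes name GCOS 1.2 without giving its role. The trimmed mean of each array is 100 units, and the scaling behind it is not given in the sources used here. From them, log2(signal + 16) was tested with limma 3.58.1 (R 4.3.3) over all 15 arrays by group, with a variance trend, 12 residual degrees of freedom and Benjamini-Hochberg adjustment over 21729 probe sets above the 30th percentile of probe set means. The threshold was an adjusted p of 0.05. The 57 control probe sets were left out, and 5 arrays a group limit the precision. The array set (split at a log2 5′/3′ ratio of -1) was a term in a second fit. Tables, promoters and permutations used Python 3.11.15, numpy 2.4.6 and pandas 2.3.3, and figures matplotlib 3.10.9. The code was tested on simulated data.

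Named were, per comparison and direction, the 5 genes above the filter with the smallest p (none passed), genes that passed between array sets, genes whose probe sets disagreed, and a fixed list of well-known channels. Members and lists were chosen with earlier results of these data known. Alternatives were the offset, the filter, quantile normalization, median centring, the variance trend, the 10 arrays compared alone, the array set and the 5′/3′ ratio as terms, another probe set, a replicate block and each array left out.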

Additional observations from a re-analysis of the deposited data

Results flagged for a closer look

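In 10 of 150 groups of 5 arrays, 1 array lay so far from the rest that its gap passed Dixon's 95% critical value, and chance flags about 1 in 20 groups. No share over all genes stands beside these counts, so they mark no trait of the members. Water-deprived replicate 3 was the far array in 5 of the 10. There Kcnab2 was at 723 against 89.1 to 146 on the other water-deprived arrays, Kcnj6 at 368 against 57.7 to 88.6, Kcnq5 at 125 against 26.3 to 28.5, Kcnma1 at 123 against 26.9 to 30.2 and Kcna4 at 97.8 against 25.4 to 30.9. Control replicate 2 was far above the other controls for Kcnh2 (103, against 36.5 to 50.01) and Kcnh6 (89.3, against 38.1 to 49.0). Control replicate 5 was far below them for Kcnd2 (122, against 204 to 249). Kcnh3 was low on food-deprived replicate 2 (38.4, against 69.0 to 85.2) and high on control replicate 1 (59.3, against 44.5 to 48.3).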

How the results depend on the processing

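The counts of potassium channel genes that passed between water deprivation and control, and between water and food deprivation, were 0 in both directions under every alternative run. Between food deprivation and control the count of higher genes, 0 in the report, was 1 with an offset of 64 (Kcna5), 1 without the variance trend (Kcna5), 2 without the filter (Kcnn1 and Kcnj13), 2 with only the 10 arrays compared (Kcna5 and Kcnt1) and 0 to 2 with 1 array left out. The count of lower genes, 0 in the report, was 1 without the filter (Kcnk5), 1 with only the 10 arrays compared (Kcnc4), 1 when any probe set of a gene counted (Kcnd3) and 0 to 1 with 1 array left out. The count between array sets, 3 in the report, was 0 to 6 with 1 water-deprived array left out. Kcna5 passed between food deprivation and control without water-deprived replicate 1 (limma adjusted p = 0.0458), 2 (0.0472) or 3 (0.0208) or control replicate 4 (0.0244). Kcnt1 passed without water-deprived replicate 2 (0.0478) or 3 (0.0491). Of all 21729 probe sets, 1355 were higher and 991 lower without water-deprived replicate 1. These numbered 1462 and 1023 without replicate 2, 1715 and 1139 without replicate 3, and 671 and 611 without control replicate 4. Over all probe sets, 1037 were higher and 817 lower in food deprivation as deposited, 825 and 975 after quantile normalization, 652 and 1179 after median centring, 2567 and 1616 with only the 10 arrays compared, 687 and 567 with the replicate block and 0 and 0 with the array set as a term. They numbered 1156 and 837 with an offset of 64, and 1045 and 801 without the variance trend.

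Of 30 named differences, 11 changed sign with the array set as a term, which rests on the water-deprived arrays and widened the median interval. For water deprivation minus control this was Kcna2 (0.0155). For food deprivation minus control these were Kcnt1 (-0.0504), Kcnk9 (-0.0809), Kcnc4 (0.257), Kcnj11 (0.141), Kcnd2 (0.427), Kcna2 (0.316) and Kcng2 (0.612), and for water minus food deprivation Kcnc4 (-0.0674), Kcnd2 (-0.0678) and Kcnt1 (0.0315). With the 5′/3′ ratio as a term 4 changed sign, Kcnj11 (0.0086), Kcnd2 (0.137) and Kcng2 (0.233) for food deprivation minus control and Kcnd2 (-0.0266) for water minus food deprivation. On the gene's next brightest probe set 8 of the 15 that have one changed sign, Kcna2 (0.256) for water deprivation minus control, Kcnt1 (-0.0427), Kcnc4 (0.349), Kcnj11 (0.41) and Kcna2 (0.42) for food deprivation minus control, and Kcnj11 (-0.103), Kcnc4 (-0.198) and Kcnab1 (-0.035) for water minus food deprivation. With 1 array left out, Kcnc1 ranged from -0.432 to 0.0156 for water deprivation minus control, the last without control replicate 2. The cause was not tested. The other alternatives kept the sign of all 30 or of those that stayed above a stricter filter.

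Replicate numbers did not pair the arrays: deviations of same-numbered arrays correlated between -0.361 and 0.366. With the replicate block, 1 gene (Kcna5, adjusted p = 0.049) was higher between food deprivation and control, against 0 without it.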
